A study of Mus musculus with 6 samples.

Results

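Absorptive colonocyte-like epithelial cells of mouse colon tumours were taken from single-cell RNA libraries by a rule on counted transcripts. A barcode passed the epithelial gate with 3 or more unique molecular identifiers (UMIs, counted transcripts) of Epcam, Krt8, Krt18, Krt19 and Cldn7, at least 2 of these genes detected and no UMI of the leukocyte gene Ptprc. It was a member if it also held 3 or more UMIs over Krt20, Clca4a, Clca4b, Car4, Ceacam20, Lypd8 and Slc26a3, and fewer than 3 over the secretory genes Muc2, Spink4, Fcgbp, Clca1, Lyz1 and Defa24. The rule found 624 members among 4419 barcodes of the gate, 50875 barcodes that passed the filters on genes and mitochondrial UMIs and 64505 deposited barcodes. The 3795 gate barcodes that were not members are called the other epithelial barcodes, and they include those with 3 or more secretory UMIs.

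Whole colon tumours of male mice were dissociated, live cells were sorted with DAPI, and droplet 3′ libraries were made, 3 for each of 2 tumour models. Apc ICI mice carried VilCreER and Apcfl/fl, so that villin-driven, tamoxifen-activated Cre removes Apc in epithelium, and were induced by 1 injection of 70 µl of 100 µM 4-OH tamoxifen under the colonic mucosa. AOM PN mice carried VilcreER, P53fl/fl and Notch1Tg, were given 2 mg of tamoxifen into the peritoneum and, starting 4 days later, 10 mg/kg of the carcinogen azoxymethane (AOM) weekly for 6 weeks. Both models share the villin-driven Cre and its activation by a tamoxifen compound. They differ in the targeted genes, the carcinogen and the route of induction, and these cannot be told apart here, nor can a batch shared by the libraries of 1 model. The labels do not say that the 3 samples of a model came from separate animals, so a p-value reflects only how much these samples vary, which may be technical variation.

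Absorptive colonocytes line the upper crypt and the surface of the colon, where they take up water, sodium, chloride and short-chain fatty acids through a brush border of microvilli. They descend from Lgr5-positive stem cells of the crypt base, which depend on Wnt signalling. Apc belongs to the complex that destroys beta-catenin, so its loss turns on Wnt target genes. Notch signalling favours the absorptive over the secretory fate, and p53 arrests or kills cells with damaged DNA. Lypd8, a lipid-anchored surface protein of mouse colonocytes, binds flagellated bacteria and keeps them off the epithelium.

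Lypd8 led the rule. The gene lies on the plus strand of chromosome 11 at chr11:58379043-58390728 (GRCm38, GENCODE M21), and the RefSeq promoter of its first start, at chr11:58378782-58379081, is shown because this gene chose most members. Capitals mark a TATANA match.
Lypd8: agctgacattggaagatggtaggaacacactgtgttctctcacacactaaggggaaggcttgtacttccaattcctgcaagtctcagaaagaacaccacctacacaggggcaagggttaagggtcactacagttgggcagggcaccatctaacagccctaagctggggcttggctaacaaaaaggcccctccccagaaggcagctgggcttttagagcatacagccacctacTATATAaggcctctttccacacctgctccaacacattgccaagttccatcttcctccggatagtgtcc
Both strands were searched for TATANA and for TTCNNNGAA, a pattern bound by STAT factors. TATANA occurs in 24.7% and TTCNNNGAA in 8.30% of 32851 RefSeq mouse promoters of this length, and the Lypd8 window held 1 and 0 matches. A match is a description of letters, not of a bound site.

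Lypd8 gave 92.2%, 87.8% and 96.8% of the marker UMIs in members of Apc ICI 1, 2 and 3. The same share was 89.6%, 80.8% and 86.2% for AOM PN 1, 2 and 3. A Lypd8 UMI was present in 95%, 86.7% and 90.7% of Apc ICI members and in 99.7%, 97.3% and 98.0% of AOM PN members. Among the other epithelial barcodes the shares were 14.1%, 10.6% and 8.43% in Apc ICI and 21.6%, 15.1% and 12.3% in AOM PN. All of these values follow from the rule and are given as a description.

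The remaining markers were found in fewer members. Krt20, a keratin of differentiated surface cells, was detected in 21 of 93 Apc ICI and 81 of 531 AOM PN members. Ceacam20, a microvillus protein, was detected in 8 and 173, the calcium-activated channel regulator family member Clca4b in 11 and 109, its paralogue Clca4a in 2 and 80, and the carbonic anhydrase Car4 in 1 and 34. Slc26a3, the main chloride-bicarbonate exchanger of the surface colonocyte, was detected in 2 Apc ICI and 3 AOM PN members. Aqp8, a water channel of mouse surface colonocytes outside the rule, was at 0 in all Apc ICI members and was found in 4, 4 and 0 members of AOM PN 1, 2 and 3. The colonocyte label therefore held in part: the members were epithelial cells led by Lypd8 in both models, and most lacked the ion exchanger and water channel of mature surface cells at this depth.

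**Figure D1:**
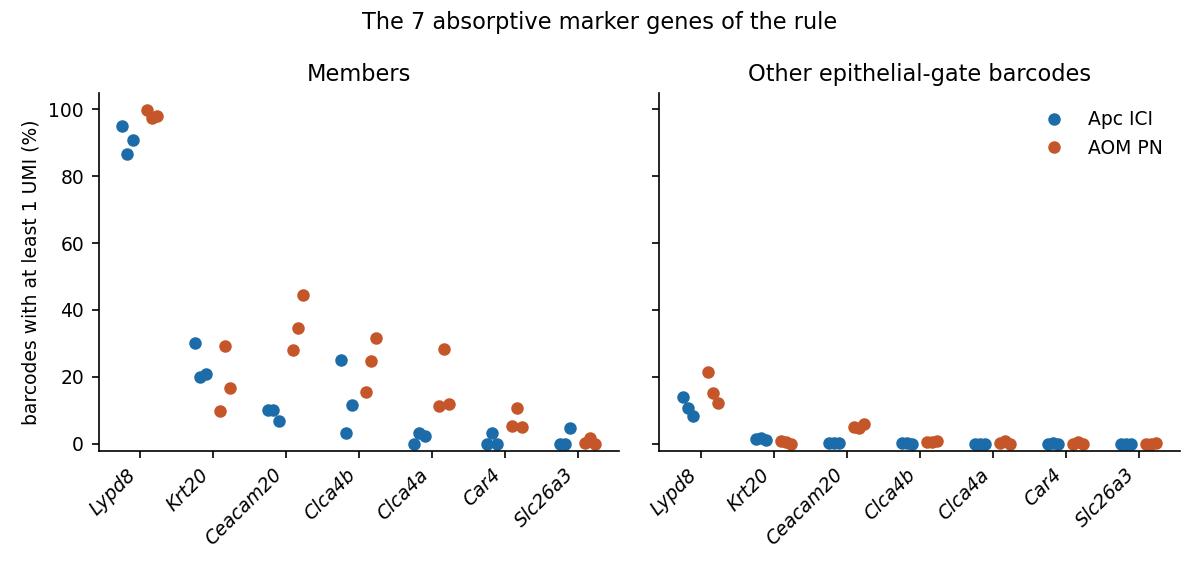
Percentage of barcodes with at least 1 UMI of each of the 7 absorptive markers in members (left) and other epithelial barcodes (right), with a dot per library coloured by model. Lypd8 reached 86.7% to 99.7% of members in the 6 libraries, whereas Slc26a3 reached at most 4.65%.

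Library totals ran from 59309093 to 98583066 UMIs, with 1.87% to 61.4% of them from haemoglobin genes, which were left out of all levels. Barcodes that carried Ptprc and none of the 5 gate genes, taken as leukocytes, met the marker minimum of 3 UMIs in 0% to 0.715% of cases, mostly through Car4, and held a Lypd8 UMI in 0.794% to 3.97%. Their median depth per library was 3302 to 5903 UMIs. From 10 to 52 barcode sequences occurred in both libraries of a pair, and none was a member in both. A doublet score ranked barcodes, and the share marked, 4.00% to 10.2%, was set beforehand by the number of barcodes in a library. Of the members 8 were marked.

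Members were deeper than the other epithelial barcodes in every library. Their median UMIs were 32585, 38451 and 22991 in Apc ICI and 19410, 10372 and 8932 in AOM PN. The other epithelial barcodes had medians of 8832.5, 8905 and 6125 in Apc ICI and 1682, 1712.5 and 1555 in AOM PN. A rule on a sum of UMIs selects deeper barcodes, so each comparison of members with other barcodes is also given over barcodes of at least 5000 UMIs where that ends the call, turns its direction or moves the value by over 1.5 times. At that depth 13, 26 and 33 Apc ICI and 233, 72 and 64 AOM PN members remained. Of the other barcodes 298, 521 and 338 remained in Apc ICI, from 532, 905 and 747. In AOM PN 130, 63 and 53 of them remained, from 741, 470 and 400.

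**Figure D2:**
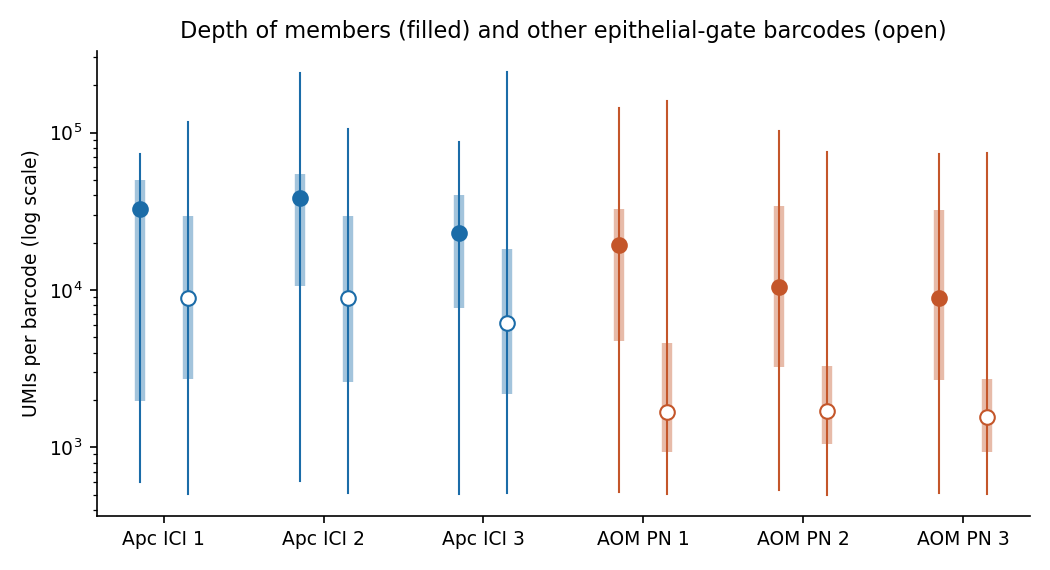
UMIs per barcode (log axis) in members and in other epithelial barcodes of each library, with the median as a point, the quartiles as a thick bar and the range as a thin line. The gap between the classes was wider in AOM PN, where the other barcodes had medians of 1555 to 1712.5 UMIs.

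The first question was how much of the tumour epithelium met the rule in each model. Members made up 20 of 552, 30 of 935 and 43 of 790 gate barcodes in Apc ICI 1, 2 and 3, or 3.62%, 3.21% and 5.44%. In AOM PN 1, 2 and 3 they made up 317 of 1058, 113 of 583 and 101 of 501, or 30%, 19.4% and 20.2%. The exact (Clopper-Pearson) 95% intervals of the Apc ICI libraries ran from 2.18% to 7.26% and those of the AOM PN libraries from 16.2% to 32.8%, counting error only. Every AOM PN library lay above every Apc ICI library. The means were 4.09% ± 1.19 and 23.2% ± 5.90 (SD, n = 3 each), a difference of 19.1 percentage points, and the exact two-sided permutation test gave p = 0.1, the smallest that 3 against 3 samples can give. The test therefore could not pass the threshold of 0.05.

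The direction of the share was the same under each setting tried. With a minimum of 2 marker UMIs the means were 5.33% and 28.0%, and with 5 they were 3.12% and 19.4%. After each barcode was thinned to 1000 UMIs, with shallower ones left out, they were 0.961% and 10.5%, and at 5000 UMIs 3.22% and 45.8%. Without Lypd8 in the sum they were 0.914% and 6.70%. The thinned shares are unlike measures. At 5000 UMIs only barcodes of the original gate were thinned, whereas at 1000 UMIs a barcode that lost its Ptprc UMIs could enter the gate. The cut at 5000 UMIs kept 130, 63 and 53 of 741, 470 and 400 other barcodes in AOM PN. In Apc ICI it kept 298, 521 and 338 of 532, 905 and 747, so the AOM PN denominator shrank more. The gate itself made up 11%, 12.7% and 15.1% of filtered barcodes in Apc ICI and 9.06%, 6.59% and 3.92% in AOM PN. As a share of all filtered barcodes, members were at 0.400%, 0.409% and 0.823% in Apc ICI and at 2.72%, 1.28% and 0.790% in AOM PN, so on that scale the models overlapped.

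Counts of barcodes just outside the rule were higher in every AOM PN library, whereas counts just inside overlapped between the models. They come from the marker sum of the rule itself and are given as a description. In Apc ICI 8, 13 and 7 gate barcodes held 2 marker UMIs, just outside the rule, and 0, 4 and 12 held 3, just inside. In AOM PN 64, 21 and 24 held 2 and 28, 11 and 8 held 3.

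**Figure D3:**
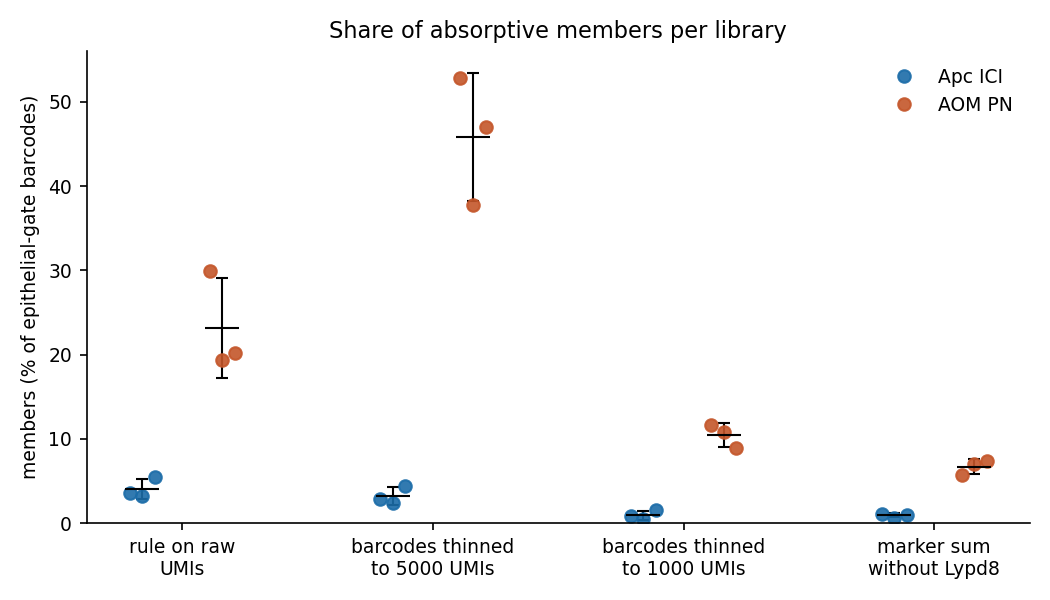
Members as a percentage of epithelial-gate barcodes, with a dot per library and the mean ± SD of the 3 libraries of each model. The Apc ICI libraries sit between 3.21% and 5.44% and the AOM PN libraries between 19.4% and 30%.

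Some members carried Lypd8 alone of the 7 markers, and the rest carried at least 1 other marker, with or without Lypd8. Lypd8 alone accounted for 12, 20 and 26 Apc ICI members (60%, 66.7% and 60.5%) and for 186, 48 and 35 AOM PN members (58.7%, 42.5% and 34.7%). Detection of 2 or more markers held for 7, 7 and 13 Apc ICI and 130, 64 and 64 AOM PN members. At least 3 UMIs of the other 6 markers, which 1 marker could supply, were carried by 6, 6 and 8 Apc ICI and 60, 41 and 37 AOM PN members. The levels of these subsets are CPM, counts per 1000000 of the summed UMIs outside haemoglobin, and they are given with no test because both subsets were made from the rule.

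Examples from AOM PN follow, chosen after their values were seen. Saa1, an acute-phase protein of inflamed epithelium, was at 7.24, 2.98 and 5.92 CPM in Lypd8-only members and at 913, 3255 and 590 CPM in those with 3 or more UMIs of the other markers. Dmbt1, a scavenger receptor that binds bacteria, was at 670, 203 and 185 CPM against 1555, 1625 and 1256 CPM. Reg3g, an antibacterial lectin, was at 837, 2.00 and 299 CPM against 3822, 2248 and 1681 CPM. The subset with 3 or more UMIs of the other markers was higher for each of these genes in all 3 AOM PN libraries. Cdhr5, a protocadherin that links microvilli, was at 54.6, 57.1 and 65.2 CPM against 226, 399 and 231 CPM. Ly6a, an antigen of regenerating epithelium, was at 704, 798 and 836 CPM against 1738, 1844 and 1783 CPM. The stem cell receptor Lgr5 ran the other way, at 15.7, 30.1 and 7.41 CPM in Lypd8-only members against 0.667, 0 and 1.76 CPM. Axin2, a Wnt target, was at 81.7, 84.2 and 107 CPM against 36.7, 39.8 and 25 CPM. The Lypd8-only members were also the deeper ones, with medians of 16868.5, 15194.5 and 18379 UMIs against 10200.5, 3485 and 4714; the part of depth in these values was not tested.

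In Apc ICI the subset with at least 3 UMIs of the other markers rested on 6, 6 and 8 barcodes, and the Lypd8-only subset on 12, 20 and 26. Lgr5 was at 60.9, 39.1 and 47.4 CPM in Lypd8-only members and at 15, 0 and 0 CPM in the first subset. Saa1 was at 0, 4.98 and 0 CPM against 972, 33.4 and 100 CPM. Both genes differed in the same direction as in AOM PN in every library.

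Members were next compared with the other epithelial barcodes of the same library, on UMIs summed per library and class, which asks what else the cells chosen by these markers express. Levels are CPM scaled by TMM (trimmed mean of M-values) library sizes, and changes are log2 ratios of members over other barcodes with an approximate standard error (SE). The SE is the size of the log2 change divided by the square root of the test's F value, not a fitted error. It can be too small where a class holds few UMIs. A gene was called at an adjusted p under 0.05 (edgeR quasi-likelihood test, library as a block, Benjamini-Hochberg). The 19 genes of the rule were not tested. In AOM PN 4724 of 10012 genes were called (47.2%), 2508 higher and 2216 lower in members. The direction within libraries was the same in all 3 libraries for 70.5% of the genes tested. In Apc ICI 1973 of 11640 were called (17%), 852 higher and 1121 lower, and the direction was the same in every library for 54.9%. Over barcodes of at least 5000 UMIs the calls were 1291 of 9531 in AOM PN, 1171 of them also called in the same direction over all barcodes, and 1856 of 11437 in Apc ICI, 1790 of them so. Most of the AOM PN count was gone at that depth, so AOM PN list counts are given at both depths. The AOM PN counts at that depth also rest on far fewer other barcodes, given above. The parts of depth and of this smaller, changed class in the lost calls were not tested. In Apc ICI the counts of the lists described below moved by at most 1 call in either direction. Lypd8 led the rule, and without it in the marker sum 1018 of 9897 genes were called in AOM PN. In that setting 60, 41 and 37 AOM PN members remained. The members chosen through Lypd8 then counted among the other barcodes, so values without Lypd8 are against a changed class. In summed RNA, more cells with a transcript and more transcript per cell cannot be told apart.

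Of 10 further colonocyte genes 8 passed the filter on low counts in each model. In AOM PN 5 were higher and 0 lower, with a median log2 difference of 1.15 beside 0.04 over all genes tested; over barcodes of at least 5000 UMIs 3 of 8 were higher. In Apc ICI 6 were higher and 1 lower, with a median of 1.47 beside −0.09. Higher calls made up 25% of all genes tested in AOM PN and 7.32% in Apc ICI, and lower calls 22.1% and 9.63%. With other barcodes of 3 or more secretory UMIs left out, 8 of 8 colonocyte genes were higher in Apc ICI, with a median of 2.62. In that setting AOM PN had 6 higher and 1 lower of 8, with a median of 1.83. Calls in either direction then made up 19.6% of all genes tested in Apc ICI and 50.3% in AOM PN.

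**Figure D4:**
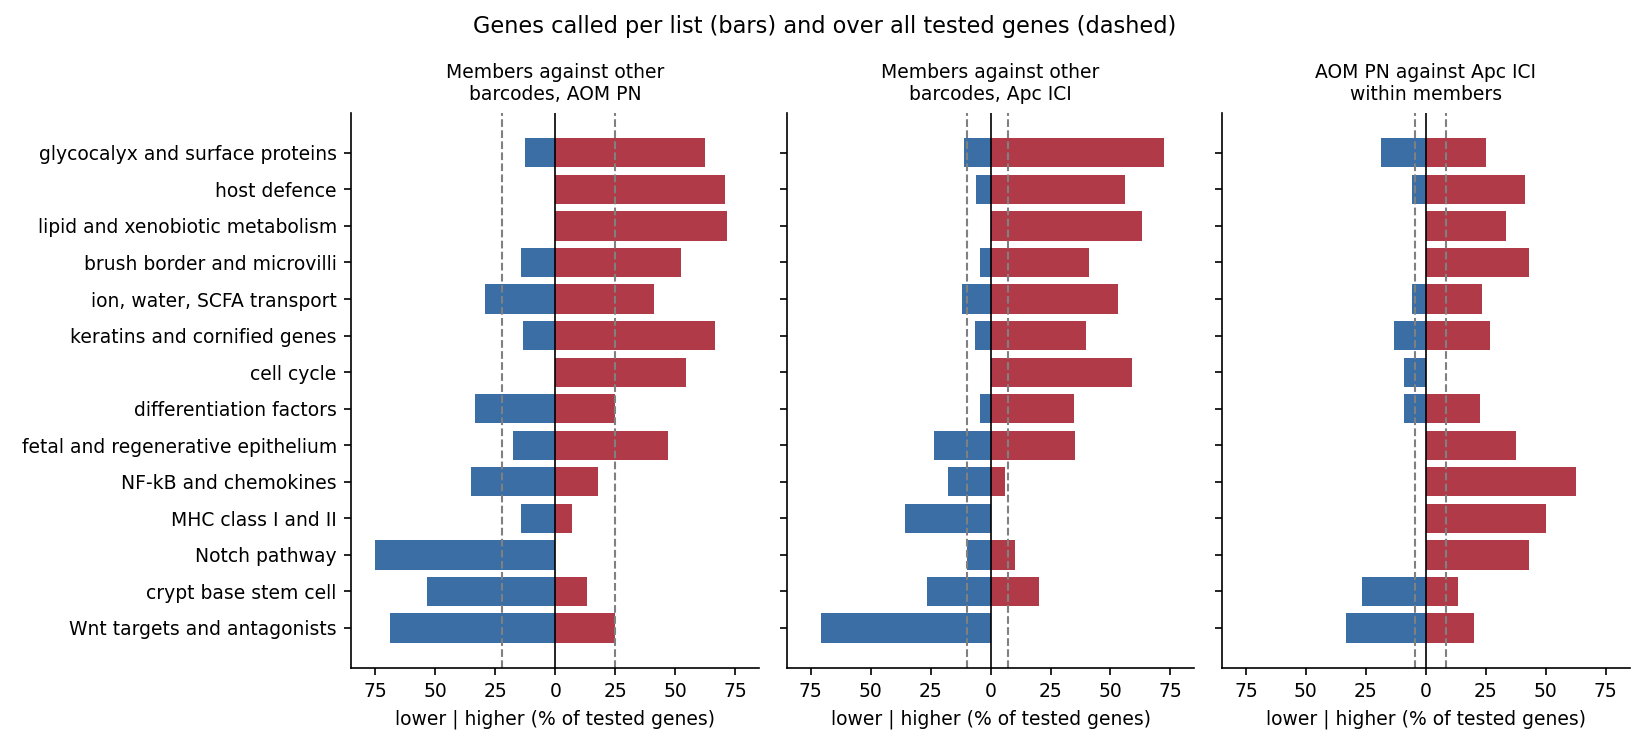
Percentage of the tested genes of each list called higher (right) or lower (left) in members against other epithelial barcodes in AOM PN and in Apc ICI, and in AOM PN against Apc ICI members. Dashed lines mark the percentage over all genes tested. Host-defence genes were called higher for 12 of 17, 9 of 16 and 7 of 17 genes, and Wnt genes lower for 11 of 16, 12 of 17 and 5 of 15.

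Of 17 tested genes of ion and water transport in each model, 7 were higher and 5 lower in AOM PN, and 9 were higher and 2 lower in Apc ICI. The AOM PN counts over barcodes of at least 5000 UMIs were 6 higher and 1 lower, with a median of 0.91 in place of 0.54. Aqp4, a water channel of the basolateral membrane, was at 76.2, 46.2 and 137 CPM in AOM PN members and at 12.7, 17.6 and 12.5 CPM in other barcodes. It was at 30.9, 11.2 and 36.3 CPM against 1.73, 2.76 and 1.10 CPM in Apc ICI. Members were above other barcodes in every library, by 2.49 ± 0.29 (adjusted p = 8.33e-05, edgeR) and 3.64 ± 0.56 (adjusted p = 0.00302) on the log2 scale. The Apc ICI value was 4.52 without Apc ICI 2 and 3.01 without Apc ICI 3, and the AOM PN value 0.86 and not called without Lypd8 in the rule (adjusted p = 0.209). Slc9a3, the apical sodium-hydrogen exchanger, went the other way: it was at 4.30, 3.77 and 0 CPM in AOM PN members and at 35.9, 23.1 and 19.8 CPM in other barcodes. Its Apc ICI levels were 11.4, 49.3 and 52.5 CPM against 78.2, 74.6 and 86.3 CPM. Slc9a3 was lower in members by −3.18 ± 0.37 (adjusted p = 9.09e-05) and −1.02 ± 0.28 (adjusted p = 0.0381). Cftr, the chloride channel of crypt secretion, was higher in Apc ICI members (2.40 ± 0.30, adjusted p = 0.00115) and was not called in AOM PN (0.54 ± 0.25, adjusted p = 0.0932), except without AOM PN 2 (0.80, adjusted p = 0.0111).

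Carbonic anhydrases and the guanylin system, which set bicarbonate and fluid secretion, included 5 higher and 2 lower of 8 genes in AOM PN (3 and 0 of 7 over barcodes of at least 5000 UMIs) and 4 higher and 1 lower of 6 in Apc ICI. Car2 was at 645, 548 and 731 CPM in AOM PN members against 328, 274 and 197 CPM, and at 142, 381 and 370 CPM in Apc ICI members against 39.2, 63.6 and 123 CPM. It was higher by 1.28 ± 0.20 (adjusted p = 0.000487, edgeR) and 2.02 ± 0.19 (adjusted p = 0.000285). The guanylin Guca2a was lower in Apc ICI members (−1.14 ± 0.27, adjusted p = 0.0213), at 22.8, 20.9 and 38.2 CPM against 42.6, 82.3 and 52.7 CPM, and was not called without Apc ICI 1 or Apc ICI 2 (−1.25 and −0.67). That direction turned when the other barcodes with 3 or more secretory UMIs were left out: Guca2a was then higher by 3.15 and called. In that setting 6 of 6 genes of this list were higher in Apc ICI, and 6 of 8 were higher and 2 lower in AOM PN. These secretory barcodes made up 11.1%, 11.4% and 4.69% of the other barcodes in Apc ICI and 1.08%, 1.70% and 0.25% in AOM PN.

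Brush border genes were higher for 11 and lower for 3 of 21 tested in AOM PN (10 and 1 over barcodes of at least 5000 UMIs), and higher for 9 and lower for 1 of 22 in Apc ICI. Cdhr5 was at 111, 153 and 148 CPM in AOM PN members against 32.7, 54.6 and 30.3 CPM, and at 30.9, 19.4 and 44.9 CPM in Apc ICI members against 7.13, 11.4 and 8.55 CPM. Members exceeded other barcodes in all 6 libraries, by 1.82 ± 0.18 (adjusted p = 3.31e-05, edgeR) and 1.74 ± 0.34 (adjusted p = 0.00907), the second not called without Apc ICI 1 (1.56, adjusted p = 0.0545). Its partner Cdhr2 was higher by 1.71 ± 0.23 and 2.76 ± 0.46 (adjusted p = 0.000177 and 0.00427), and the AOM PN value was 3.06 over barcodes of at least 5000 UMIs. The actin bundlers Pls1 and Vil1 were higher by 1.00 ± 0.16 and 0.69 ± 0.18 in AOM PN and by 1.51 ± 0.15 and 1.17 ± 0.16 in Apc ICI, but without Lypd8 in the rule Vil1 was not called in AOM PN (0.48, adjusted p = 0.116). Myo1a, the motor that ties microvillus actin to the membrane, was higher by 1.03 ± 0.17 in AOM PN and 2.08 ± 0.16 in Apc ICI (adjusted p = 0.000586 and 0.000114).

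Glycocalyx and surface genes were higher for 10 and lower for 2 of 16 in AOM PN (9 and 2 over barcodes of at least 5000 UMIs) and higher for 13 and lower for 2 of 18 in Apc ICI. The membrane mucin Muc13 was at 697, 715 and 710 CPM in AOM PN members against 226, 214 and 166 CPM. In Apc ICI it was at 412, 326 and 386 CPM against 152, 146 and 102 CPM. Its levels varied little between libraries, and it was higher by 1.82 ± 0.17 (adjusted p = 2.4e-05, edgeR) and 1.5 ± 0.15 (adjusted p = 0.000395). Ceacam1, an adhesion molecule of the apical surface, was at 757, 759 and 558 CPM in AOM PN members against 290, 411 and 346 CPM, and at 309, 256 and 379 CPM in Apc ICI members against 50.1, 66.6 and 49.6 CPM. It was higher by 0.99 ± 0.18 and by 2.49 ± 0.19 (adjusted p = 0.0011 and 0.000101), with an interaction of −1.51 ± 0.27 (adjusted p = 0.0126). The interaction was not called over barcodes of at least 5000 UMIs (−1.22, adjusted p = 0.136) or without Krt20 in the rule (−1.34, adjusted p = 0.0569), nor the AOM PN difference without Lypd8 (0.67, adjusted p = 0.0673). The mucin Muc3 was higher by 2.68 ± 0.29 and 4.38 ± 0.62, but 97.2% of its UMIs among Apc ICI 2 members came from 1 barcode. Its AOM PN value was 3.40 without AOM PN 2, and its Apc ICI value 5.40 without Apc ICI 2 and 3.58 without Apc ICI 3. The galectin Lgals4 was higher by 1.43 ± 0.23 and 2.5 ± 0.18, and the tetraspanin Tspan1 by 2.89 ± 0.32 and 1.52 ± 0.27, the last not called without Apc ICI 1 (1.22, adjusted p = 0.059).

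Host-defence genes were higher in members for 12 of 17 genes in AOM PN, with 0 lower, and for 9 of 16 in Apc ICI, with 1 lower. Their medians were 0.98 and 1.31 on the log2 scale. The AOM PN counts over barcodes of at least 5000 UMIs were 8 higher and 1 lower of 17. With secretory barcodes left out of the other class, 13 of 16 were higher and 1 lower in Apc ICI. The AOM PN counts were then 12 higher and 0 lower of 17. Saa1 (chromosome 7, chr7:46740497-46742980, minus strand, GRCm38) was at 237, 738 and 219 CPM in AOM PN members against 6.34, 123 and 3.96 CPM, a difference of 3.96 ± 0.44 (adjusted p = 6.72e-05, edgeR). Its Apc ICI levels were 217, 23.2 and 24.8 CPM against 2.38, 0.707 and 0.733 CPM, a difference of 5.80 ± 0.34 (adjusted p = 4.33e-05). Few cells carried it: 51 of 317, 31 of 113 and 28 of 101 AOM PN members, and 5 of 20, 3 of 30 and 2 of 43 Apc ICI members. The AOM PN value was 3.37 without AOM PN 1, 5.40 without AOM PN 2 and 3.37 over barcodes of at least 5000 UMIs, and the Apc ICI value 4.98 without Apc ICI 1. A single barcode gave 92.5% of the Saa1 UMIs in Apc ICI 1 members and 63.7% in AOM PN 2 members. Dmbt1 was more widely spread, with UMIs in 250, 76 and 85 AOM PN members and in 12, 9 and 17 Apc ICI members. It was at 1036, 613 and 615 CPM in AOM PN members against 150, 120 and 62.0 CPM (2.80 ± 0.20, adjusted p = 5.36e-06). In Apc ICI members Dmbt1 was at 345, 27.7 and 429 CPM against 8.65, 9.38 and 6.97 CPM (4.47 ± 0.69, adjusted p = 0.00316), a value of 5.57 without Apc ICI 2 and 3.64 without Apc ICI 3. The AOM PN value of Dmbt1 was 3.75 over barcodes of at least 5000 UMIs.

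The antibacterial lectins Reg3b and Reg3g lie near each other on mouse chromosome 6, and transcription factor STAT3 is known to act on such genes in epithelium. Their promoters are shown because these genes separated the models most among the host-defence genes, as given further on. Capitals mark TTCNNNGAA and TATANA matches on either strand. Reg3b lies on the plus strand with its promoter at chr6:78370635-78370934, and Reg3g on the minus strand with its promoter at chr6:78468825-78469124 (RefSeq, GRCm38.p6).
Reg3b: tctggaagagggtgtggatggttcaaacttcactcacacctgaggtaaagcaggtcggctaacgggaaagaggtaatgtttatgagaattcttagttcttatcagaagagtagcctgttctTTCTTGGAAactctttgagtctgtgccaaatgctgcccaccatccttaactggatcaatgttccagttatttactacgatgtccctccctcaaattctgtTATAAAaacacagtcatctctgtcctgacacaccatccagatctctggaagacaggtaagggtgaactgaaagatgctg
Reg3g: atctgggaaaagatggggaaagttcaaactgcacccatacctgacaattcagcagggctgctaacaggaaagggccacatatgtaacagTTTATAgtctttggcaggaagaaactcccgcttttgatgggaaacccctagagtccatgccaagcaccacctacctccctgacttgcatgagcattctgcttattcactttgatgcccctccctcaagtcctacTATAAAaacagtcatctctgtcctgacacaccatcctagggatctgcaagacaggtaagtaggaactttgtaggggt
The Reg3b window held 1 TTCNNNGAA and 1 TATANA match, and the Reg3g window held 0 and 2. These counts say only which letters lie in the windows.

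Reg3b was at 2645, 371 and 776 CPM in AOM PN members and at 122, 0 and 257 CPM in other barcodes. It was at 86.3, 59.1 and 27.7 CPM in Apc ICI members against 7.46, 9.25 and 10.8 CPM. Members were higher within each library, by 3.85 ± 0.71 (adjusted p = 0.00134, edgeR) and 2.57 ± 0.34 (adjusted p = 0.00156), although 96.2% and 98.7% of the member UMIs of Apc ICI 1 and 2 came from 1 barcode each. The AOM PN value of Reg3b was 3.23, 3.02 and 5.26 without AOM PN 1, 2 and 3, it was 4.59 over barcodes of at least 5000 UMIs, and DESeq2 did not call it (adjusted p = 0.0514). Reg3g was at 1899, 572 and 768 CPM in AOM PN members against 238, 5.46 and 168 CPM (3.41 ± 0.52, adjusted p = 0.00043), a value of 2.61 without AOM PN 2 and 4.20 without AOM PN 3. In Apc ICI it was at 119, 18.7 and 37.2 CPM against 23.2, 18.2 and 21.8 CPM, which was not called (1.16 ± 0.37, adjusted p = 0.0625) except without Apc ICI 2 (1.58, adjusted p = 0.0145) or Apc ICI 3 (1.34, adjusted p = 0.0026). Pigr, the receptor that carries immunoglobulin A across the epithelium, was higher by 1.32 ± 0.19 and 2.00 ± 0.31 (adjusted p = 0.000321 and 0.00339). Nlrp6, an inflammasome sensor of enterocytes, was higher by 0.98 ± 0.18 in AOM PN and 2.66 ± 0.40 in Apc ICI (adjusted p = 0.00115 and 0.00287), the first at −0.21 and not called without Lypd8 in the rule. Lcn2, which withholds iron from bacteria, was the exception in Apc ICI: members had 116, 70.3 and 79.3 CPM against 728, 530 and 342 CPM, lower by −2.57 ± 0.16 (adjusted p = 5.89e-05).

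Lipid and xenobiotic genes were higher for 15 of 21 tested in AOM PN and 12 of 19 in Apc ICI, with 0 lower in both. Over barcodes of at least 5000 UMIs they were higher for 9 of 18 in AOM PN. Gpx2, the glutathione peroxidase of gut epithelium, was at 4419, 5238 and 5417 CPM in AOM PN members against 2349, 2458 and 1698 CPM, and at 1761, 1457 and 2480 CPM in Apc ICI members against 367, 514 and 395 CPM. It was higher by 1.22 ± 0.20 (adjusted p = 0.0006, edgeR) and 2.14 ± 0.19 (adjusted p = 0.00024), but without Lypd8 in the rule the AOM PN value was 0.19 and not called (adjusted p = 0.371). The brain-type creatine kinase Ckb was at 281, 281 and 289 CPM against 115, 126 and 111 CPM in AOM PN. Its Apc ICI levels were 99.3, 138 and 136 CPM against 12.1, 17.2 and 16 CPM. Its differences of 1.28 ± 0.15 and 3.04 ± 0.14 were unequal, with an interaction of −1.76 ± 0.18 (adjusted p = 0.000829), and the first was 0.57 and not called without Lypd8 (adjusted p = 0.199). Selenbp1, which breaks down methanethiol, a sulphur compound, was higher in AOM PN members (2.33 ± 0.25, adjusted p = 6.16e-05) and level in Apc ICI, at 16.3, 8.22 and 16.2 CPM against 15.7, 11.8 and 12.2 CPM.

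Of the differentiation factors tested, 6 of 24 were higher and 8 lower in AOM PN, with a median of −0.27, and 8 of 23 were higher and 1 lower in Apc ICI. The AOM PN counts were 6 higher and 3 lower of 22 over barcodes of at least 5000 UMIs. Cdx1, a factor of intestinal identity, was at 187, 163 and 169 CPM in AOM PN members against 88.7, 97.1 and 58.0 CPM, and at 73.3, 55.3 and 82.1 CPM in Apc ICI members against 20.7, 17.3 and 20.5 CPM. It was higher by 1.11 ± 0.17 (adjusted p = 0.000497, edgeR) and 1.83 ± 0.16 (adjusted p = 0.00021), the first at 0.14 and not called without Lypd8 in the rule (adjusted p = 0.729). Hnf4a, which drives enterocyte genes, was higher by 1.04 ± 0.15 and 1.42 ± 0.15 (adjusted p = 0.000343 and 0.000435). Cdx2 was higher by 0.73 ± 0.20 and 2.67 ± 0.74 (adjusted p = 0.011 and 0.0373), but the first was not called over barcodes of at least 5000 UMIs (0.63, adjusted p = 0.16), without Lypd8 (0.63, adjusted p = 0.274), by DESeq2 (adjusted p = 0.0929) or without AOM PN 3 (0.61, adjusted p = 0.0608), and the second was not called without Apc ICI 1 or Apc ICI 3 (2.58 and 1.54) and was 3.89 without Apc ICI 2.

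Keratin and cornified-envelope genes were higher for 10 and lower for 2 of 15 in AOM PN, and higher for 6 and lower for 1 of 15 in Apc ICI; over barcodes of at least 5000 UMIs the AOM PN counts were 4 and 2. Krt36, a hair-type keratin, was at 723, 382 and 676 CPM in AOM PN members against 310, 101 and 213 CPM (1.59 ± 0.18, adjusted p = 6.99e-05, edgeR; 0.16 and not called without Lypd8 in the rule, adjusted p = 0.879). Krt23 was lower in AOM PN members, at 11.6, 3.30 and 1.19 CPM against 71.1, 57.7 and 110 CPM (−3.54 ± 0.38, adjusted p = 6.16e-05; −5.11 without AOM PN 1). Neither keratin was called in Apc ICI. Among genes of regenerating epithelium Ly6a was at 1120, 1083 and 1295 CPM in AOM PN members against 235, 189 and 166 CPM, and at 914, 404 and 578 CPM in Apc ICI members against 129, 91.4 and 101 CPM. It was higher by 2.57 ± 0.19 and 2.5 ± 0.15 (adjusted p = 5.88e-06 and 4.33e-05).

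**Figure D5:**
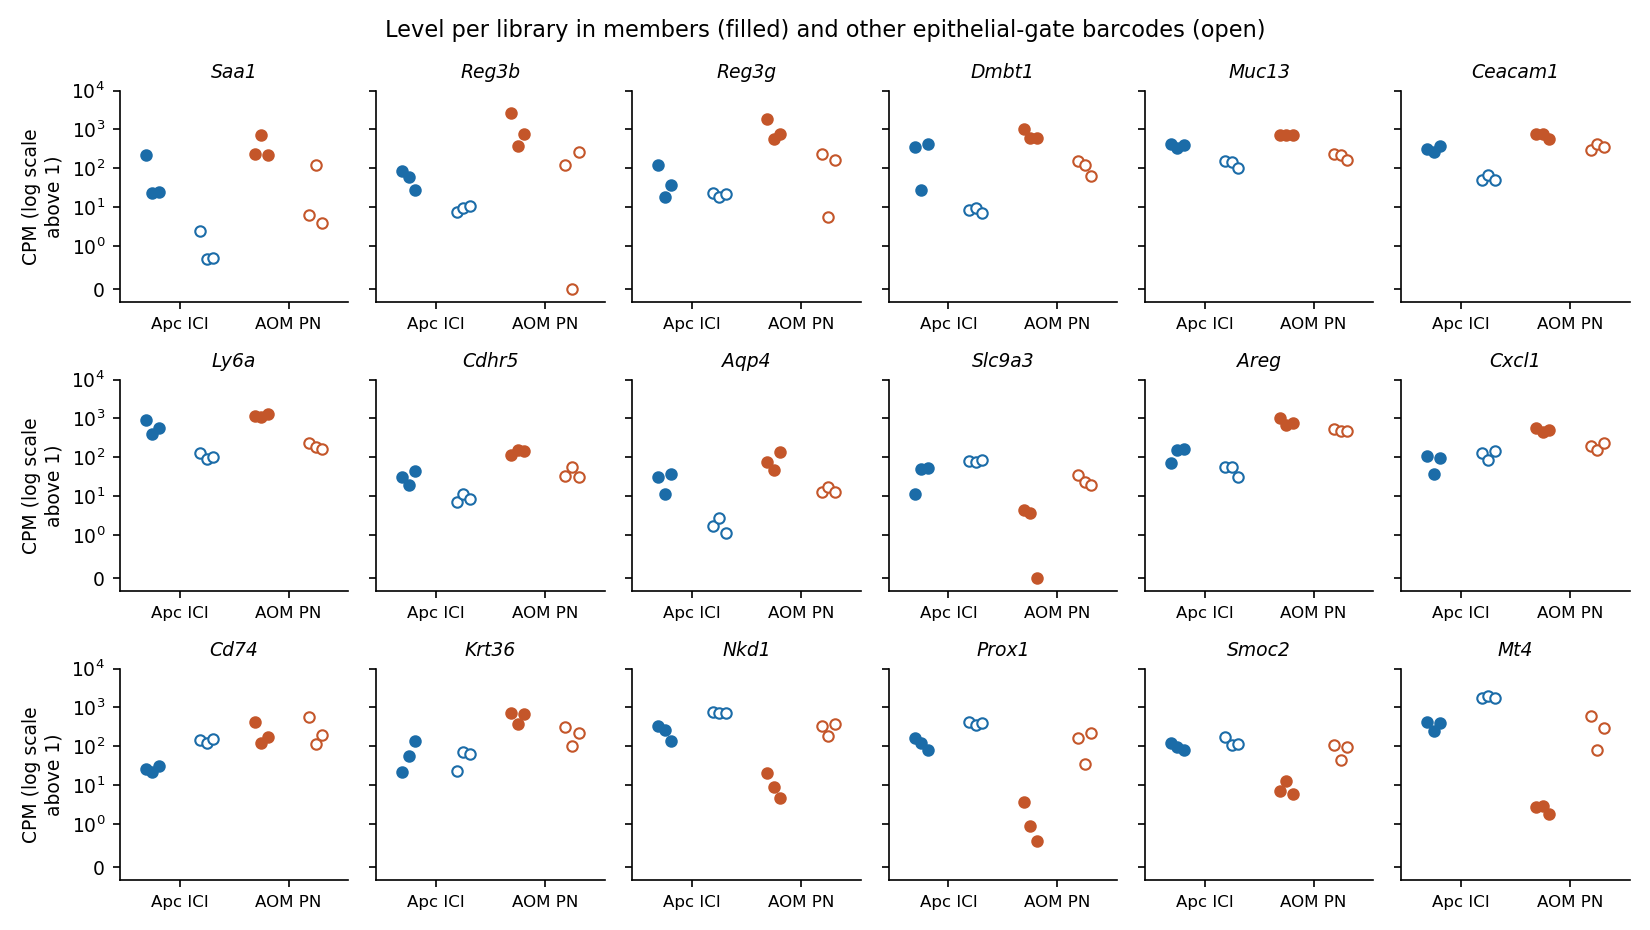
Level of 18 genes (CPM, symmetrical log axis that is linear below 1) per library in members and other epithelial barcodes of both models. Muc13, Ly6a and Aqp4 were higher in members in every library, whereas Nkd1, Prox1 and Mt4 were lower, at no more than 20.8 CPM in any AOM PN member sum.

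Of the Wnt targets and antagonists 11 of 16 were lower and 4 higher in AOM PN members, with a median of −0.98 (8 and 1 of 15 over barcodes of at least 5000 UMIs), and in Apc ICI 12 of 17 were lower and 0 higher, with a median of −1.11. Nkd1, an antagonist that Wnt signalling induces, was at 20.8, 8.96 and 4.76 CPM in AOM PN members against 331, 186 and 363 CPM. In Apc ICI it was at 324, 264 and 133 CPM against 778, 699 and 720 CPM. Member and other values did not overlap in either model, and Nkd1 was lower by −4.57 ± 0.30 (adjusted p = 3.19e-06, edgeR) and −1.68 ± 0.20 (adjusted p = 0.000934). The interaction was called at −2.89 ± 0.43 (adjusted p = 0.00606). Without AOM PN 1 the AOM PN value and the interaction of Nkd1 were −5.26 and −3.59. Axin2, a scaffold of the beta-catenin destruction complex and a Wnt target, was at 83.5, 84.9 and 98.3 CPM in AOM PN members against 237, 273 and 279 CPM. It was at 135, 164 and 103 CPM in Apc ICI members against 289, 247 and 248 CPM. Axin2 was lower by −1.56 ± 0.15 (adjusted p = 2.97e-05) and −0.97 ± 0.15 (adjusted p = 0.00338), and the AOM PN value was −0.98 over barcodes of at least 5000 UMIs. The secreted antagonists Notum and Wif1 were lower by −3.46 ± 0.35 and −3.55 ± 0.43 in AOM PN and by −1.21 ± 0.17 and −2.15 ± 0.11 in Apc ICI, with Wif1 at −2.88 in AOM PN without AOM PN 1. Lef1, a transcription partner of beta-catenin, was lower by −2.17 ± 0.19 and −1.79 ± 0.18. Lgr4, a receptor of R-spondin, was higher in AOM PN (0.77 ± 0.18, adjusted p = 0.00421), but was not called by DESeq2 (adjusted p = 0.0561).

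Crypt-base stem cell genes did not move together. In AOM PN 8 of 15 were lower and 2 higher (6 and 1 over barcodes of at least 5000 UMIs), and in Apc ICI 4 of 15 were lower and 3 higher. Lgr5 was at 12.2, 16 and 8.93 CPM in AOM PN members against 73.6, 58.9 and 71.2 CPM (−2.45 ± 0.21, adjusted p = 1.77e-05, edgeR). Its Apc ICI levels were 47.2, 29.2 and 28.7 CPM against 66.4, 33.1 and 43.7 CPM. Members were lower in each library, but the ranges overlapped and the difference was not called (−0.42 ± 0.17, adjusted p = 0.121, edgeR). The interaction for Lgr5 was −2.04 ± 0.29 (adjusted p = 0.00476). Smoc2, a matricellular protein of the same cells, was lower in AOM PN by −3.29 ± 0.34 (adjusted p = 4.39e-05; −3.93 without AOM PN 2) and was at 124, 94.2 and 78.3 CPM against 177, 107 and 117 CPM in Apc ICI (−0.42 ± 0.14, adjusted p = 0.066), called without Apc ICI 2 (−0.59, adjusted p = 0.0474) and over barcodes of at least 5000 UMIs (−0.47, adjusted p = 0.0496). Ascl2, a Wnt-driven stem cell factor, was higher in members of both models, by 0.76 ± 0.22 and 1.26 ± 0.20 (adjusted p = 0.015 and 0.00365), although the AOM PN value was not called over barcodes of at least 5000 UMIs (0.53, adjusted p = 0.19), without AOM PN 3 (0.74, adjusted p = 0.0606) or by DESeq2 (adjusted p = 0.0752), and was −2.08 without Lypd8 in the rule (adjusted p = 0.0107). Lrig1, which restrains ErbB receptors in stem cells, was lower in AOM PN members (−1.02 ± 0.17) and higher in Apc ICI members (1.86 ± 0.23), with an interaction of −2.89 ± 0.26 (adjusted p = 0.000829). Over barcodes of at least 5000 UMIs Lrig1 was not called in AOM PN (−0.25, adjusted p = 0.44).

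Other genes with large decreases have no single role in the gut. Mt4, a metallothionein, was at 2.81, 2.83 and 1.79 CPM in AOM PN members against 612, 80.1 and 290 CPM, and at 427, 253 and 399 CPM in Apc ICI members against 1760, 2014 and 1731 CPM. It was lower by −7.15 ± 0.38 (adjusted p = 1.03e-06, edgeR) and −2.39 ± 0.18 (adjusted p = 0.000101), the first −6.15 without AOM PN 1. Prox1, a homeobox factor, was at 3.64, 0.943 and 0.596 CPM against 164, 35.8 and 218 CPM in AOM PN. In Apc ICI it was at 166, 121 and 82.1 CPM against 433, 343 and 407 CPM. Prox1 was lower by −5.90 ± 0.32 (adjusted p = 1.03e-06) and −1.72 ± 0.18 (adjusted p = 0.00042), and the member values did not overlap those of other barcodes. Its AOM PN value was −7.10 without AOM PN 1. The protease Prss56 had no UMI in any AOM PN member and 390 among the other barcodes, at least 213-fold higher there by the limit of 3 counts over the group. AOM PN 1 held 345 of these UMIs, and without it the same limit was 18-fold.

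Cell-cycle genes were higher for 12 and lower for 0 of 22 in AOM PN and higher for 13 and lower for 0 of 22 in Apc ICI. The AOM PN count was 1 of 22 over barcodes of at least 5000 UMIs, and the Apc ICI count 12 of 22. Ccnb2, a cyclin of mitosis, was at 97.2, 65.1 and 83.4 CPM in AOM PN members against 22.2, 21.9 and 29.0 CPM and stayed called at that depth (1.78 ± 0.18, adjusted p = 4.63e-05, and 1.39, adjusted p = 0.015, edgeR), but was at −0.033 without Lypd8 in the rule. In Apc ICI it was higher by 1.37 ± 0.21 (adjusted p = 0.00288). Mki67, a marker of cycling cells, was at 73.3, 127 and 158 CPM in Apc ICI members against 45.4, 70.4 and 51.1 CPM (1.09 ± 0.19, adjusted p = 0.00507) and was not called in AOM PN (0.38 ± 0.16, adjusted p = 0.0697).

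Notch pathway genes were lower for 6 and higher for 0 of 8 in AOM PN, which at 5000 or more UMIs became 1 lower of 7. Hes1, the repressor through which Notch blocks the secretory fate, was at 206, 258 and 217 CPM in AOM PN members against 271, 464 and 434 CPM (−0.74 ± 0.17, adjusted p = 0.00382, edgeR), not called without Lypd8 in the rule (−0.55, adjusted p = 0.115). Nrarp, a feedback target of Notch, was lower in AOM PN members over all barcodes (−0.53 ± 0.17, adjusted p = 0.025) but at 0.52 (adjusted p = 0.06) over barcodes of at least 5000 UMIs, so its direction turned with depth. It was also not called without AOM PN 2 or AOM PN 3 (−0.38 and −0.40), by DESeq2 (adjusted p = 0.0596) or without Lypd8 (−0.043). In Apc ICI Nrarp was higher in members (1.54 ± 0.42, adjusted p = 0.0352), and not called without Apc ICI 1 or Apc ICI 3 (1.09 and 1.45).

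The rule kept out barcodes with secretory transcripts, so low secretory genes in members partly follow from it. In Apc ICI 7 of 12 secretory genes outside the rule were lower and 0 higher. Tff3, the goblet-cell trefoil peptide, was at 0, 2.24 and 1.91 CPM in members against 508, 403 and 328 CPM (−7.89 ± 0.29, adjusted p = 5.15e-06, edgeR), and was not called with secretory barcodes left out of the other class (−0.76, adjusted p = 0.56). The microbicidal Ang4 had no UMI in Apc ICI members and 5437 in other barcodes, at least 165-fold higher there by the limit of 3 counts over the group. Apc ICI 2 held 4128 of these UMIs, 1523 of them in 1 barcode, and without it the same limit was 41.6-fold.

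Transcripts of other cells and of nuclei also differed between members and other barcodes. The plasma-cell transcript Igkc was at 128, 31.6 and 16.1 CPM in AOM PN members against 9919, 61.9 and 13.8 CPM, and the mast-cell protease Mcpt1 at 147, 43.4 and 910 CPM against 949, 240 and 1968 CPM. Of the whole lists, in CPM without TMM scaling, neutrophil markers summed to 102 to 402 CPM in Apc ICI and 471 to 643 CPM in AOM PN members, against 238 to 771 CPM and 1055 to 1542 CPM in other barcodes. Dendritic markers summed to at most 5.17 CPM and fibroblast and endothelial markers to at most 3.77 CPM in members, with Flt3, Pdgfra and Kdr at 0 in every member sum. The nuclear RNA Malat1 was lower in members by −1.10 ± 0.20 and −1.17 ± 0.11 (adjusted p = 0.00117 and 0.000245, edgeR), the first not called without AOM PN 2 (−1.16, adjusted p = 0.0625) and at 0.57 without Lypd8 in the rule (adjusted p = 0.0352). Gm26917, an rRNA-like transcript, was at 533, 1120 and 1393 CPM in AOM PN members against 15142, 25320 and 21714 CPM, lower by −4.43 ± 0.24 (adjusted p = 1.03e-06) and by −1.67 over barcodes of at least 5000 UMIs. The part of these transcripts in the differences above was not tested.

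Whether the profile of members differed between models was tested directly as the interaction. Of 10860 genes 619 were called (5.7%), 289 with a positive and 330 with a negative interaction. The sign is that of the AOM PN log2 difference minus the Apc ICI one and does not give its size. A negative value can be a larger decrease in AOM PN members, as for Nkd1 above. Over barcodes of at least 5000 UMIs the count was 33 of 10527, all 33 shared, and with secretory barcodes left out of the other class it was 1240. Of the 619 calls 46.7% were positive, against 33.3% with DESeq2 size factors (RLE) and 30.8% with haemoglobin kept, so the balance of directions depended on scaling. Cxcl1, a neutrophil chemokine, was higher in AOM PN members (1.43 ± 0.16) and lower in Apc ICI members (−0.67 ± 0.18), with an interaction of 2.10 ± 0.24 (adjusted p = 0.00161, edgeR; 2.02, adjusted p = 0.0045 at 5000 or more UMIs). The Apc ICI difference of Cxcl1 was not called without Apc ICI 2 (−0.49, adjusted p = 0.109) or by DESeq2 (adjusted p = 0.0748), and its AOM PN difference not without Lypd8 in the rule (0.51, adjusted p = 0.404). Cd74, the invariant chain of MHC class II, was lower in Apc ICI members (−2.41 ± 0.15) and at −0.18 ± 0.16 in AOM PN, with an interaction of 2.23 ± 0.22 (adjusted p = 0.000829; 2.14, adjusted p = 0.0039 at that depth). Elovl6, a fatty acid elongase, was higher in AOM PN members (1.24 ± 0.21) and lower in Apc ICI members (−1.06 ± 0.21), with an interaction of 2.30 ± 0.31 (adjusted p = 0.00349). Transport genes included 6 of 19 with a negative interaction and 0 with a positive one, and none of the 6 passed the test over barcodes of at least 5000 UMIs.

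The members of the models were then compared with each other, which the labels imply and in which median depth differed less. The targeted genes came first as a check of the labels. Trp53 was at 62.0, 82.1 and 54.8 CPM in AOM PN and at 140, 139 and 143 CPM in Apc ICI members, lower by −1.09 ± 0.16 (adjusted p = 0.00201, edgeR). Apc was at 58.4, 51.4 and 65.5 CPM in AOM PN and 40.7, 77.8 and 49.7 CPM in Apc ICI members (0.01 ± 0.22, adjusted p = 0.992). Notch1 was at 35.2, 29.2 and 22.0 CPM against 44.0, 41.1 and 38.2 CPM (−0.46 ± 0.21, adjusted p = 0.18). The 3′ tags may lie outside the deleted part of a floxed gene or outside a transgene's transcript, so these levels check nothing beyond the tags themselves. Nrarp was at 65.7, 63.7 and 60.2 CPM in AOM PN against 21.2, 11.2 and 16.2 CPM, higher by 2.05 ± 0.22 (adjusted p = 0.000405), and 3 of 7 tested Notch genes were higher and 0 lower.

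Of 9124 genes tested between members 1203 were called (13.2%), 771 higher in AOM PN (8.45%) and 432 lower (4.73%), with a median log2 difference of 0.07. Member levels of the models did not overlap for 33% of all genes tested, so separation alone was common. Over barcodes of at least 5000 UMIs 1223 of 8992 were called, 1120 of them shared and in the same direction.

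Host-defence genes were higher in AOM PN members for 7 of 17 and lower for 1, with a median of 1.26. Reg3b and Reg3g differed most: their member levels, given above, did not overlap between the models, and they were higher by 4.51 ± 0.70 (adjusted p = 0.00258, edgeR) and 4.37 ± 0.63 (adjusted p = 0.00171). Without AOM PN 1 these values were 3.34 and 3.64, and Reg3g was at 5.35 without Apc ICI 1. Reg3g was found in 147, 17 and 55 AOM PN and 3, 4 and 5 Apc ICI members. Nos2, which makes nitric oxide, was at 75.7, 104 and 120 CPM in AOM PN against 3.26, 8.22 and 15.3 CPM (3.35 ± 0.33, adjusted p = 0.0003). Duox2, the oxidase of the mucosal surface, was at 59.2, 97.6 and 84.0 CPM against 30.9, 14.2 and 15.3 CPM (2.09 ± 0.30, adjusted p = 0.00166). Both sets of values stood apart. Il18, an epithelial cytokine, was the gene of the list that was lower, at 20.7, 10.8 and 28.6 CPM against 125, 52.3 and 68.8 CPM (−1.98 ± 0.36, adjusted p = 0.00603). Saa1 was at 237, 738 and 219 CPM against 217, 23.2 and 24.8 CPM and was not called (2.33 ± 0.77, adjusted p = 0.0721); without Apc ICI 1, whose Saa1 came mainly from 1 barcode, it was called at 4.06, and without AOM PN 2, where 1 barcode also gave most Saa1, it was at 1.54 and not called (adjusted p = 0.225).

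NF-kB targets and chemokines were higher for 10 of 16 genes and lower for 0, with a median of 1.16. Cxcl1 was at 582, 449 and 508 CPM in AOM PN members against 109, 38.1 and 93.6 CPM (2.73 ± 0.30, adjusted p = 0.00044, edgeR). Ccl20, which attracts lymphocytes and dendritic cells, was at 103, 84.9 and 166 CPM against 4.89, 5.23 and 25.8 CPM (3.23 ± 0.46, adjusted p = 0.00168; 4.49 without Apc ICI 3). Tnfaip3, a feedback inhibitor of NF-kB, was at 103, 63.2 and 87.0 CPM against 14.7, 22.4 and 31.5 CPM (1.84 ± 0.26, adjusted p = 0.00164). All 3 genes stood apart between the models, as did 33% of all genes tested. Among ligands of the EGF receptor, Areg was at 1018, 657 and 752 CPM against 73.3, 155 and 161 CPM (2.61 ± 0.26, adjusted p = 0.000358). Ereg was at 26.0, 25 and 50 CPM against 0, 0.748 and 0 CPM (6.38 ± 0.73, adjusted p = 0.000568), a fitted value that depends on the prior count and was 9.22 without Apc ICI 2. Hbegf was at 877, 599 and 326 CPM against 339, 254 and 403 CPM, which overlapped and was not called (0.86 ± 0.30, adjusted p = 0.0881) except without AOM PN 3 (1.21, adjusted p = 0.0094).

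Antigen-presentation genes were higher for 6 of 12 and lower for 0. Cd74 was at 414, 118 and 174 CPM in AOM PN members against 26.1, 21.7 and 30.6 CPM (3.20 ± 0.46, adjusted p = 0.00171, edgeR; 2.46 without AOM PN 1), with UMIs in 197, 61 and 61 members against 10, 17 and 14. The class II chain H2-Ab1 was at 58.1, 25.9 and 38.1 CPM against 6.51, 5.98 and 4.78 CPM (2.87 ± 0.40, adjusted p = 0.00158). In the other epithelial barcodes of AOM PN the same genes were at 565, 112 and 189 CPM and at 84.1, 18.2 and 35.6 CPM, close to the member levels. Monocyte and macrophage markers summed, without TMM scaling, to 95.5, 28.4 and 41.8 CPM in AOM PN and 51.7, 45.6 and 8.47 CPM in Apc ICI members. Dendritic markers summed to at most 5.17 CPM in members. The part of other cells' RNA in the class II difference was not tested.

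Brush border genes were higher in AOM PN members for 9 of 21 and lower for 0. Cdhr5 was higher by 2.13 ± 0.26 (adjusted p = 0.000759, edgeR), Pls1 by 1.14 ± 0.17 (adjusted p = 0.00186) and Mall, a raft protein of the enterocyte, by 1.73 ± 0.27 (adjusted p = 0.00283), each with groups that did not overlap. Of the surface genes Muc13 was higher by 0.92 ± 0.12 and Ceacam1 by 1.14 ± 0.17 (adjusted p = 0.0011 and 0.00237). The identity factors Cdx1, Cdx2 and Hnf4a were higher by 1.32 ± 0.16, 1.91 ± 0.37 and 0.85 ± 0.13 (adjusted p = 0.00086, 0.00851 and 0.00283), with Cdx2 at 2.78 without Apc ICI 3. Of the metabolic genes, Gpx2 was higher by 1.40 ± 0.18 and Selenbp1 by 2.68 ± 0.25 (adjusted p = 0.000973 and 0.000208). Slc9a3 was lower by −3.60 ± 0.57 (adjusted p = 0.00297; −4.25 without AOM PN 1). Aqp4 was higher by 1.78 ± 0.46 (adjusted p = 0.0289) and was not called without Apc ICI 2, AOM PN 1 or AOM PN 3 (1.35, 1.83 and 1.37). Car1, a carbonic anhydrase of colonocytes, was lower by −5.36 ± 1.11 (adjusted p = 0.0111) and not called without AOM PN 1 (−4.99, adjusted p = 0.0534) or by DESeq2 (adjusted p = 0.0542), and it was −4.27 without Apc ICI 2. Its Apc ICI levels were 0, 845 and 378 CPM, and 1 barcode gave 55.9% of its UMIs in Apc ICI 2.

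Wnt and stem cell genes were split. Of 15 Wnt genes 5 were lower and 3 higher in AOM PN members, and of 15 stem cell genes 4 were lower and 2 higher. Nkd1, Notum and Wif1 were lower by −4.14 ± 0.43, −3.24 ± 0.29 and −3.93 ± 0.23 (adjusted p = 0.000405, 0.000186 and 2.53e-05, edgeR). Axin2, at levels nearer to each other, was lower by −0.61 ± 0.17 (adjusted p = 0.0461) and not called over barcodes of at least 5000 UMIs (−0.57, adjusted p = 0.061) or without any 1 of 5 libraries, with values of −0.38 without Apc ICI 2, −0.58 without Apc ICI 1 or AOM PN 2, −0.59 without AOM PN 1 and −0.64 without AOM PN 3. Ephb3, a Wnt target that positions crypt cells, was higher, at 43.8, 55.7 and 56.6 CPM against 13.0, 11.2 and 10.5 CPM (2.17 ± 0.22, adjusted p = 0.00039). Sp5, another Wnt target, was at 41.8, 42.0 and 27.4 CPM against 14.7, 12.7 and 16.2 CPM (1.38 ± 0.25, adjusted p = 0.00602). Lgr5 and Smoc2 were lower by −1.42 ± 0.28 and −3.53 ± 0.27 (adjusted p = 0.00833 and 8.73e-05). Mt4, Prox1 and Bex1 showed the largest decreases by the naming rule, of −7.06 ± 0.28, −5.62 ± 0.41 and −6.03 ± 0.61. Without AOM PN 1 Nkd1 was at −5.09 and Prox1 at −7.13, and without Apc ICI 1 Bex1 was at −5.39.

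Of 15 keratin and cornified-envelope genes 4 were higher and 2 lower in AOM PN members, with a median of 0.03. Krt36 was at 723, 382 and 676 CPM in AOM PN members against 21.2, 55.3 and 135 CPM (3.02 ± 0.46, adjusted p = 0.00234, edgeR; 3.84 without Apc ICI 3), and was found in 212, 59 and 67 members against 6, 10 and 16. Krt23 was at 11.6, 3.30 and 1.19 CPM against 74.9, 366 and 179 CPM (−4.90 ± 0.62, adjusted p = 0.000939; −4.16 without Apc ICI 2 and −6.47 without AOM PN 1). Of p53 targets 4 of 15 were higher and 1, Trp53 itself, was lower. Cdkn1a, the best known p53 target in cell-cycle arrest, was at 294, 293 and 189 CPM against 173, 333 and 302 CPM (−0.07 ± 0.24, adjusted p = 0.904). Perp, an adhesion protein that p53 induces, was at 244, 213 and 227 CPM against 122, 135 and 144 CPM, higher by 0.76 ± 0.13 (adjusted p = 0.00386).

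Genes of other cells also stood high in AOM PN members. Trac, the constant part of the T-cell receptor alpha chain, was at 232, 224 and 210 CPM against 16.3, 4.49 and 3.82 CPM (5.01 ± 0.31, adjusted p = 3.09e-05, edgeR; 5.73 without Apc ICI 1). It was found in 218, 61 and 56 AOM PN and 4, 5 and 4 Apc ICI members, whereas Cd3e was found in 5, 1 and 1 and in 0, 2 and 3, so the defining T-cell genes were at or near 0. In the other epithelial barcodes of AOM PN Trac was lower than in members, at 88.3, 98.4 and 42.9 CPM. The mast-cell proteases Mcpt1 and Mcpt2 were higher by 6.00 ± 1.22 and 6.61 ± 1.43 (adjusted p = 0.0101 and 0.0134), with Mcpt1 at 147, 43.4 and 910 CPM against 1.63, 6.73 and 6.69 CPM. Without AOM PN 3 they were 4.17 and 4.54, and Mcpt2 was not called without Apc ICI 3 (6.88, adjusted p = 0.0588). A single barcode gave 58.4% of the Mcpt1 UMIs of AOM PN 3 members, and the mast-cell gene Cpa3 was found in 86, 5 and 40 AOM PN and in 0 Apc ICI members. The neutrophil gene S100a9 was at 315, 214 and 197 CPM in AOM PN members against 39.1, 143 and 70.7 CPM, and at 686, 433 and 364 CPM in the other barcodes of AOM PN. Over the whole lists, again without TMM scaling, the 5 T and NK markers summed to 8.47 to 22.4 CPM in Apc ICI and 192 to 207 CPM in AOM PN members. In the same order, the 4 mast markers summed to 8.62 to 14.7 CPM and 66.7 to 1897 CPM. The 5 B and plasma markers summed to 0.773 to 22.4 CPM and 15.5 to 127 CPM. The part of such RNA in the comparison of models was not tested.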

How the data were processed

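Cells of 6 libraries were profiled with a droplet 3′ kit. The UMI counts per gene and barcode were deposited by the authors as raw counts, made with Cell Ranger 6.1.2 on mm10, per the submitters' processing notes. The gene annotation and the rule for calling cells are not given in the sources used here. Each table holds 31053 features, and each deposited barcode has at least 500 UMIs. Each 3′ tag counts 1 transcript end, so levels are per 1000000 UMIs and not per length.

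Barcodes entered with 200 or more genes detected and no more than 20% of UMIs from mitochondrial genes. No annotation of cells by the authors was used. The members and gene lists were chosen with earlier results of these data known. Doublets were scored against simulated ones and kept, except in 1 alternative that left out 0.8% per 1000 barcodes. UMIs were summed per library and class, with at least 20 members, and haemoglobin and the 19 rule genes were left out of tests. Sums were tested with edgeR 4.0.16 in R 4.3.3 (limma 3.58.1, TMM over all 12 sums, factors 0.860 to 1.11, filterByExpr, quasi-likelihood F test) and Benjamini-Hochberg adjustment over all genes tested, at 0.05. Member against other fits had the library as a block. Scripts were tested on simulated counts. Other steps used Python 3.11.15, numpy 2.4.6, scipy 1.17.1, pandas 2.3.3, scikit-learn 1.9.0 and matplotlib 3.10.9. Gene positions are from GENCODE M21 and promoters from RefSeq, both GRCm38.

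Named genes were the genes of the rule, up to 10 genes per direction and comparison with the largest log2 change among those called, at 50 CPM or more in the higher class and with one direction in every library (or groups that did not overlap), up to 6 members of each list with the lowest adjusted p, and textbook markers of the lists by value. Which marker values and which genes of the subsets to give was decided after their values were seen. Alternatives were DESeq2 1.42.0, its size factors (RLE), no filter, other marker minimums, thinning, haemoglobin kept, doublets left out and each library left out. The settings of at least 5000 UMIs, without Lypd8, with fewer than 20 members and without secretory barcodes were added after the data were seen. Intervals cover counting error only. One result is not reported here because its item is withheld.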

Additional observations from a re-analysis of the deposited data

Results flagged for a closer look

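The difference between members and other epithelial barcodes itself differed between the models for 619 genes by the interaction test (edgeR, adjusted p under 0.05; 5.7% of those tested). Among the 10 largest positive interactions by the naming rule, the log2 values were 11.42 for Ang4, 5.37 for Spink1, 3.74 for Ccl6, 3.29 for Ramp1, 2.45 for Ccl20, 2.34 for Selenbp1, 2.30 for Elovl6, 2.23 for Cd74, 2.11 for Pam and 2.10 for Cxcl1. The 10 largest negative ones were −4.77 for Mt4, −4.20 for Prox1, −3.81 for Bex1, −2.92 for Ptprd, −2.89 for Lrig1, −2.89 for Nkd1, −2.88 for Smoc2, −2.85 for Ccdc141, −2.74 for Krt23 and −2.73 for Ccnb1ip1. Over barcodes of at least 5000 UMIs 9 of the 20 were not called (edgeR): Ang4 (11.57, adjusted p = 0.215), Ccl20 (2.48, 0.18), Ccl6 (3.58, 0.107), Ccnb1ip1 (−1.60, 0.514), Krt23 (−3.21, 0.107), Ptprd (−1.51, 0.148), Ramp1 (3.15, 0.0703), Selenbp1 (2.40, 0.0801) and Spink1 (5.48, 0.0657). Some also moved with the secretory barcodes or with 1 library. With other barcodes of 3 or more secretory UMIs left out, Ramp1 was at −0.038, Spink1 at 0.82 and Ccl6 at 1.20, none of them called, and Ang4 was not tested. Ang4 has no UMI in Apc ICI members, so its fitted value is no bound. Leaving out Apc ICI 2, Apc ICI 3 or AOM PN 3 ended the call of Ang4 (10.18, 11.65 and 12.65). That of Ccl20 ended without library 1 or 2 of Apc ICI (2.47 and 1.88), and without library 2 or 3 of AOM PN (2.01 and 2.51). Krt23 lost its call without library 2 or 3 of Apc ICI (−2.03 and −2.78), and without library 2 or 3 of AOM PN (−2.60 and −2.11). DESeq2 did not call Ang4, Ccl20 or Krt23 (adjusted p = 0.53, 0.0949 and 0.061). Bex1 was not called without AOM PN 1 (−3.47) and was −3.09 without Apc ICI 1, and Ccnb1ip1 was not called without Apc ICI 3 (−2.25). Values that stayed called moved over 1.5 times for Ccl20 (3.50 without Apc ICI 3 and 3.12 without AOM PN 1), Krt23 and Mt4 (−4.33 and −3.79 without AOM PN 1), and Nkd1 and Prox1 (−3.59 and −5.46 without AOM PN 1). Without AOM PN 2 Ccl6 was at 4.38 and Smoc2 at −3.52. Ramp1 was at 4.00 without Apc ICI 1 and 2.70 without Apc ICI 2. Spink1 was at 6.92 and 4.78 without Apc ICI 1 and 2, and at 4.33 and 6.80 without AOM PN 1 and 2.

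Outside the comparisons, 73 Apc ICI barcodes (24, 37 and 12) and 14 AOM PN barcodes (6, 8 and 0) of the epithelial gate held 3 or more absorptive and 3 or more secretory UMIs. The rule puts them among the other epithelial barcodes.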

How the results depend on the processing

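The higher share of members in AOM PN held under each of the 14 other settings tried. Differences ran from 5.78 points without Lypd8 to 42.6 points when thinned to 5000 UMIs. The cut at 5000 UMIs left out most other barcodes of AOM PN, so the 42.6 points rest on a smaller denominator. With 1 library left out, differences were 15.7 to 21 percentage points (exact permutation p = 0.2, the smallest that 2 against 3 can give). Within replicate numbers, as a replicate block, the difference was 19.1 points (exact sign-flip permutation p = 0.25, the smallest 3 pairs can give).
Calls in AOM PN members against other barcodes were 4724, and 2914 with DESeq2, 2011 thinned to 1000 UMIs, 564 thinned to 5000, 1291 at 5000 or more UMIs, 1018 without Lypd8 in the sum and 3531 to 4386 with 1 library left out. In Apc ICI they were 1973, and 1249 with a minimum of 5 marker UMIs, 1155 without Krt20, 132 thinned to 1000, 1069 without doublets, 533 thinned to 5000 and 1059 to 1600 with 1 library left out. Interaction calls were 619, and 355 with DESeq2, 1272 with no filter, 174 with a minimum of 5, 218 without Krt20, 18 thinned to 5000, 33 at 5000 or more UMIs, 1240 without secretory barcodes and 203 to 625 with 1 library left out. Calls between the members were 1203, and 2014 with no filter, 779 with a minimum of 5, 144 thinned to 1000, 272 thinned to 5000 and 728 to 1181 with 1 library left out. Thinning and stricter rules leave fewer UMIs or members, and Apc ICI 1, with 20 members, dropped out under a minimum of 5, without Krt20, when thinned to 1000 and without doublets. Without Lypd8 only the AOM PN fit could be made. The libraries that moved a count by over 1.5 times were Apc ICI 1 for Apc ICI (1059), Apc ICI 2, Apc ICI 3, AOM PN 2 and AOM PN 3 for the interaction (246, 203, 234 and 233), and Apc ICI 2 and AOM PN 1 between the members (734 and 728).

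The replicate numbers are not known to pair samples: deviations of same-numbered member sums from their group means correlated at 5.73e-05, 0.0418 and −0.0213. With a replicate block the members' comparison gave 917 calls, and with no replicate block for library the member against other fits gave 4159 in AOM PN and 2121 in Apc ICI.

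Without Lypd8 in AOM PN, Aqp4, Cdx1, Cdx2, Ceacam1, Ckb, Cxcl1, Fgfbp1, Gpx2, Hes1, Krt36, Nrarp and Vil1 lost their calls. In that setting the members chosen through Lypd8 counted among the other barcodes, so both classes changed. Some named genes turned direction. Without Lypd8 in AOM PN these were Ascl2 (−2.08), Ccnb2 (−0.033), Malat1 (0.57) and Nlrp6 (−0.21). Nrarp in AOM PN was at 0.26 thinned to 5000 UMIs and 0.52 at 5000 or more. Slc9a3 in Apc ICI was at 0.013, and the interactions of Ckb and Ccnb1ip1 at 0.087 and 3.92, when thinned to 1000. Guca2a in Apc ICI was at 3.15, and the Ramp1 interaction at −0.038, without secretory barcodes. The cause was not tested.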

Other observations

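Further genes chosen by size of change had no list of their own. Mgat4c, a glycosyltransferase, was at 117, 79.7 and 82.2 CPM in AOM PN members against 9.15, 15.2 and 3.30 CPM in other barcodes, and at 24.4, 26.2 and 26.7 CPM in Apc ICI members against 3.89, 12.8 and 5.50 CPM. It was higher by 3.37 ± 0.29 (adjusted p = 1.68e-05, edgeR) and 1.86 ± 0.36 (adjusted p = 0.00831), in every library. Tnip3, an inhibitor of NF-kB signalling, was higher by 1.18 ± 0.15 in AOM PN and 3.01 ± 0.23 in Apc ICI members, and higher in AOM PN than in Apc ICI members by 1.80 ± 0.18 (adjusted p = 0.000315). Fgfbp1, which carries fibroblast growth factors, was higher by 1.65 ± 0.15 and 3.43 ± 0.27 (adjusted p = 2.47e-05 and 0.000128), the first at 0.63 and not called without Lypd8 in the rule (adjusted p = 0.177).

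Among members, the serine protease Htra1 was at 2.81, 0 and 0.596 CPM in AOM PN against 53.7, 96.4 and 71.6 CPM in Apc ICI (−5.41 ± 0.47, adjusted p = 0.000143; −7.76 without AOM PN 1). The T-box factor Tbx3 was at 4.13, 11.8 and 1.19 CPM against 58.6, 115 and 115 CPM (−4.15 ± 0.45, adjusted p = 0.00044; −4.86 without AOM PN 2). Asprv1, an aspartic protease known from skin, was at 1.32, 2.83 and 0.596 CPM against 57.0, 99.4 and 49.7 CPM (−5.46 ± 0.41, adjusted p = 8.73e-05). By the lists' counts, interferon response genes were higher in AOM PN members for 4 of 13 and lower for 0. Hypoxia and glycolysis genes were higher for 4 and lower for 2 of 16.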
